A study of Mus musculus with 2 samples.

Results

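The genes described here are 46 Wnt ligands, receptors and modulators, picked by symbol from the 32285 features of the count tables. They comprise Wnt ligands, the frizzled receptors Fzd1 to Fzd10, the co-receptors Lrp5, Lrp6, Ror1 and Ror2, secreted inhibitors, R-spondins with their LGR receptors, and the feedback target Axin2. Cells dissociated from injured mouse tendon and its surroundings were captured in droplets, and their RNA molecules were counted by unique molecular identifiers (UMIs). The TrkA F592A group carried a point mutation in TrkA, a receptor tyrosine kinase for nerve growth factor, and the TrkA WT group carried the unmutated receptor. Mice of both groups were 12 weeks old and injured, and tissue was taken on day 14 after the operation. The F592A sample is titled INMPP1, which reads as the name of a kinase inhibitor, and the WT sample is titled Control. The labels do not say how it was dosed or whether WT mice had it too. Each genotype was 1 library made from a pool of 3 mice, so mutation, inhibitor and library cannot be told apart. With no replicates no difference was tested, and each 95% interval given reflects counting error alone.

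Wnt proteins are secreted, lipid-bearing signals. They bind frizzleds together with Lrp5 or Lrp6 to stabilise beta-catenin, or with receptors such as Ror2 to signal without it. Secreted frizzled-related proteins and Wif1 bind Wnts outside the cell, most dickkopfs and sclerostin block the Lrp co-receptors, and R-spondins acting through Lgr4, Lgr5 and Lgr6 keep frizzleds at the cell surface. In connective tissues these signals are known to take part in the choice between fibroblast, cartilage and bone fates.

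The F592A library held 8444 cells with a median of 17886.5 UMIs, and the WT library held 11257 cells with a median of 15870 UMIs. Cells were assigned to types by marker scores that used none of the 46 genes. Stromal cells, which carry collagen genes and Pdgfra, numbered 4640 in F592A and 6443 in WT. There were 594 F592A and 581 WT mural cells, the contractile cells around vessels, 606 F592A and 549 WT endothelial cells, and 1610 F592A and 2450 WT macrophages. Within the stroma, Tnmd, a tendon membrane protein, was at 2808 CPM in F592A and 2655 CPM in WT cells of the tenocyte gate, against at most 1355 and 1263 CPM in the other stromal subtypes. CPM is the UMI count of a gene relative to all UMIs of that cell type and library, on the usual counts-per-mega scale. A tendon surface gate rested on Prg4 and Angptl7 only, since Crtac1 was near 0, Tppp3 was as high in another subtype, and Clic5 marked it in WT (23.6 CPM, at most 2.40 CPM elsewhere) but not in F592A (0.66 CPM), so its cells are called Prg4/Angptl7 cells. The types are ranges of a score: 419 cells lay within 0.25 of the stromal cut, 77 that close to the mural cut and 1446 that close to the tenocyte cut. The smaller gates were more exposed: 1675 cells lay that close to the chondrogenic cut, which held 502 cells, and 1036 to the Prg4/Angptl7 cut, which held 319. The adventitial gate held 1282 cells, more than lay near its cut. Levels in clusters made without the 46 genes are set beside the calls for Wnt2, Wnt10b, Wnt16, Fzd4, Sfrp1, Sfrp2, Sfrp4, Wif1, Rspo1, Rspo3 and Lgr5. Calls of other members in those gates rest on the cut alone. Barcodes present in both libraries numbered 96, and leaving those cells out changed none of the counts of called genes given here for stromal, mural and endothelial cells.

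Of the 46 genes, 36 had at least 100 UMIs over both libraries in stromal cells, 13 in mural cells, 10 in macrophages and 7 in endothelial cells, and genes over that minimum are called measured. The 10 genes not measured in stromal cells were Wnt1, Wnt2b, Wnt3, Wnt7b, Wnt10a, Fzd10, Sfrp5, Dkk1, Rspo4 and Sost, with between 1 and 60 UMIs each over both libraries. Sost, which encodes the bone-cell inhibitor sclerostin, had 0 UMIs in F592A and 1 UMI in WT stromal cells, where 3 counts would be 0.025 and 0.020 CPM.

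Promoter windows are shown for the ligand pair that was lower in F592A stromal cells (Wnt2 and Wnt16), for the frizzled that was higher there (Fzd4), and for Wnt11, whose first window holds a TCF/LEF word, the kind of site that beta-catenin partners bind. Each is 300 bases on the strand of the gene, 250 before and 50 after the start site, from RefSeq on GRCm38.p6. They lie at chr6:18030396-18030695 (minus strand), chr6:22287977-22288276 (plus strand), chr7:89404116-89404415 (plus strand) and chr7:98834862-98835161 (plus strand). Capitals mark the word found.
Wnt2: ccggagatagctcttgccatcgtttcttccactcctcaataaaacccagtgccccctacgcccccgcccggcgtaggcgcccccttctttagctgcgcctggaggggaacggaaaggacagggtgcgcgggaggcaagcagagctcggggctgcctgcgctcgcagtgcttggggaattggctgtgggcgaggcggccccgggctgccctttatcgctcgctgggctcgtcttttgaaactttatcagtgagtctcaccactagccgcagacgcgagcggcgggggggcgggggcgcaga
Wnt16: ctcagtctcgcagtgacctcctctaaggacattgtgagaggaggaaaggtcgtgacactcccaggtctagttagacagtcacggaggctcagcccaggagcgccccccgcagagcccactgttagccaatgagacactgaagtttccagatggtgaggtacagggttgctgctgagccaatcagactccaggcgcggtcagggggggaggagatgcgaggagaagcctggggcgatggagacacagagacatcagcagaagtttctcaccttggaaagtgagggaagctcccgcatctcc
Fzd4: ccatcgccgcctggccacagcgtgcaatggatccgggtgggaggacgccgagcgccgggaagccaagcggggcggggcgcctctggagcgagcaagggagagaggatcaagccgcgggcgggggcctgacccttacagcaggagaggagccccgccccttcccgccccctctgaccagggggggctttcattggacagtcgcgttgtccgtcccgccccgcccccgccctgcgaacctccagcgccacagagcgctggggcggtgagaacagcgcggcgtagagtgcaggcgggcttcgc
Wnt11: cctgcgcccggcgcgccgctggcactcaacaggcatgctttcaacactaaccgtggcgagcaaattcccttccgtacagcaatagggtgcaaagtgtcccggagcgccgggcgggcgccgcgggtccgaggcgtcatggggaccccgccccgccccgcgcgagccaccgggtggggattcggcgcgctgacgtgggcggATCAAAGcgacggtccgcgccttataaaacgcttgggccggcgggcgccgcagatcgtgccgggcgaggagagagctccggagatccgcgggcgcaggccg
The word searched on both strands was CTTTG followed by AA, by AT, by TA or by TT. Of 32851 RefSeq promoter windows, 16.9% held such a word. Of 34 windows for 31 of the 46 genes, 5 held it: those of Fzd7, Wnt5b (1 of its windows), Wnt11, Wnt3 and Dkk1. No word lay in the windows of Wnt2, Wnt16, Fzd4, Rspo1, Wif1 or Axin2, which says only that these letters are not there.

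The genes past 1.5-fold in stromal cells lie, on GRCm38 by GENCODE M21, at chr6:17988940-18030585 (Wnt2), chr6:22288227-22298522 (Wnt16), chr7:89404355-89413134 (Fzd4), chr13:19623104-19632994 (Sfrp4), chr4:124986430-125009099 (Rspo1), chr10:29452416-29535867 (Rspo3) and chr10:121033960-121100650 (Wif1).

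Most measured members had their highest level in stromal cells. For 15 genes the stromal level was the highest of 8 cell types in both libraries, with an interval clear of the next type: Wnt5b, Wnt9a, Wnt16, Fzd1, Fzd2, Lrp6, Ror2, Sfrp1, Sfrp2, Sfrp4, Dkk2, Dkk3, Wif1, Rspo2 and Lgr5. Sfrp2, a secreted Wnt-binding protein of fibroblasts, was at 277 CPM in F592A and 262 CPM in WT stromal cells. In macrophages Sfrp2 was at 4.39 and 5.41 CPM in F592A and WT, which is 1.6% and 2.1% of the stromal level. For 14 of these 15 genes macrophages held between 0.0% and 6.4% of the stromal level. The exception was Lrp6, the co-receptor, which was at 96.0 CPM in F592A and 79.8 CPM in WT stromal cells, and in macrophages at 62.4% and 62.1% of those levels.

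**Figure D1:**
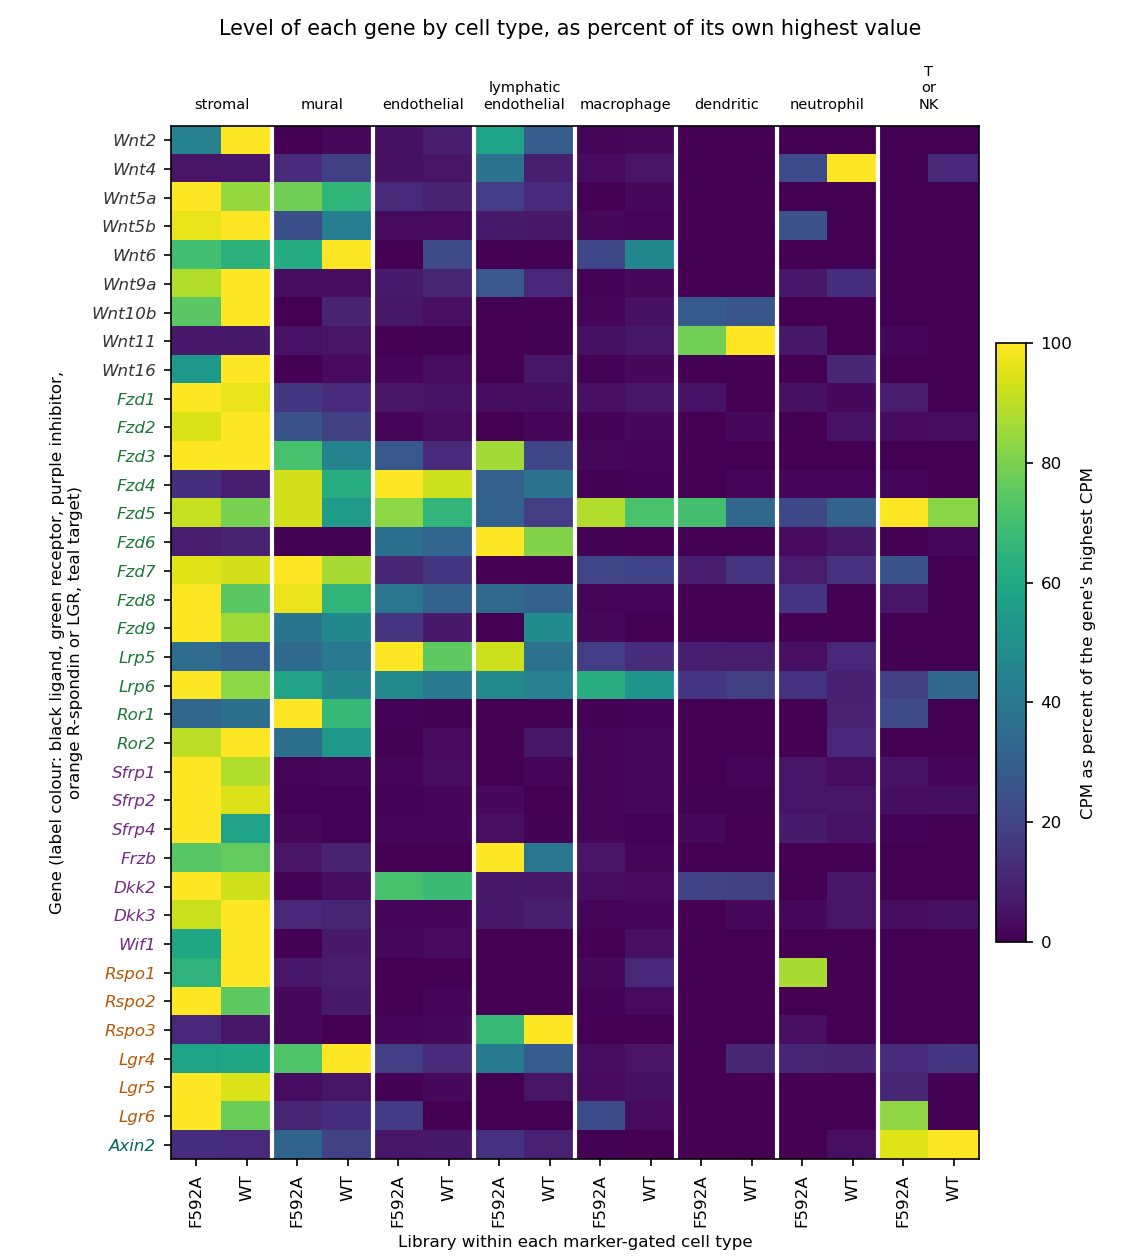
Level of the 36 genes with at least 100 UMIs over the 8 cell types, each as percent of its own highest CPM, with the F592A column left of the WT column in every type. Most rows are brightest in stromal cells, while Fzd4 is brightest in endothelial cells, Fzd6 and Rspo3 in lymphatic endothelial cells, Ror1 in mural cells, Wnt11 in dendritic cells and Axin2 in T or NK cells. The columns of the smaller types rest on few UMIs.

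A further 5 members were clearly highest outside the stroma in both libraries. Fzd6, a frizzled known for planar polarity, was at 129 CPM in F592A and 105 CPM in WT lymphatic endothelial cells, of which there were 85 and 88, against 47.0 and 42.0 CPM in the other endothelial cells and 10.3 and 12.1 CPM in stromal cells. Rspo3, an R-spondin known in vessel growth, was also highest there, at 28.2 CPM in F592A (28 UMIs) and 41.7 CPM in WT (42 UMIs), against 4.76 and 2.53 CPM in stromal cells. These lymphatic levels overlapped between libraries, and the stromal levels of Rspo3 did not. Wnt11, a ligand known for beta-catenin-independent signalling, was at 109 CPM in F592A (57 UMIs, 40 cells) and 139 CPM in WT (77 UMIs, 53 cells) dendritic cells, against 9.32 and 9.67 CPM in stromal cells. Axin2, a feedback inhibitor that beta-catenin itself induces, was at 40.6 CPM in F592A and 42.7 CPM in WT T or NK cells, on only 20 and 16 UMIs. Ror1, a Wnt5a receptor, was at 18.5 CPM in F592A and 12.4 CPM in WT mural cells, against 6.11 and 6.84 CPM in stromal cells.

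Fzd4, which serves Wnts and the vessel factor norrin, was a gene of vessels as well as stroma. It was at 125 CPM in F592A and 115 CPM in WT endothelial cells, at 117 and 78.2 CPM in mural cells, at 38.3 and 46.6 CPM in lymphatic endothelial cells and at 16.7 and 10.5 CPM in stromal cells. The endothelial and mural levels could not be ordered in F592A, where their intervals overlapped, and were apart in WT. Lrp5, the other beta-catenin co-receptor, was highest in endothelial cells too, at 44.7 CPM in F592A and 33.6 CPM in WT, with 41.3 and 16.9 CPM in lymphatic endothelial cells and 16.0 and 13.6 CPM in stromal cells. In F592A the blood and lymphatic endothelial levels of Lrp5 overlapped. Fzd5 was spread over several types: 14.8 CPM in F592A and 13.0 CPM in WT stromal cells, 15.2 and 8.99 CPM in mural cells, and 14.4 and 11.6 CPM in macrophages. Its highest level in both libraries was in T or NK cells (94 in F592A, 80 in WT), with intervals that overlapped those of the next type. Fzd7 and Fzd8 had overlapping stromal and mural levels in each library. Lgr4 was highest in mural cells in both libraries, with an interval that overlapped the stromal one in F592A and was apart in WT. Wnt6 had few UMIs in most types, but 20 Schwann cells, too few to compare, held 8 of its UMIs in F592A and 18 in WT.

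Within the stroma, ligands and modulators sat in different subtypes. Cells carrying the adventitial markers Pi16 and Cd248 numbered 512 in F592A and 770 in WT. They had the clearly highest level of Wnt2, Wnt10b, Sfrp2, Sfrp4 and Lgr4 in both libraries. Wnt10b, a ligand known to favour bone over fat formation, was at 26.5 CPM in F592A and 27.0 CPM in WT adventitial-like cells, against 1.95 and 2.71 CPM in tenocyte-like cells. Its neighbour on chromosome 15, Wnt1, had 11 of its 17 stromal UMIs in F592A and 22 of its 35 in WT in the same subtype. Wnt9a was at 48.2 and 48.3 CPM in adventitial-like cells of F592A and WT, and in WT its interval met that of Prg4/Angptl7 cells.

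The chondrogenic-like cells, with 192 cells in F592A and 310 in WT, had the highest Fzd9, Frzb and Lgr6. Frzb, a secreted Wnt-binding protein first known from cartilage, was at 24.3 CPM in F592A and 25.02 CPM in WT chondrogenic-like cells, against 3.13 and 3.30 CPM in tenocyte-like cells. Fzd9 was at 10.9 and 9.32 CPM in chondrogenic-like cells of F592A and WT. Tenocyte-like cells, with 1762 cells in F592A and 2258 in WT, were the highest for Rspo2, an R-spondin needed for limb development in mice, at 21.2 and 14.7 CPM against 10.6 and 10.8 CPM in cycling cells of F592A and WT. Ror2, the Wnt5a receptor, was highest in cycling cells at 25.5 and 26.8 CPM in F592A and WT. Stromal cells outside these gates, 1937 in F592A and 2628 in WT, were the highest for Wnt16, Fzd2, Sfrp1 and Rspo3.

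Between genotypes, 3 measured members were at least 1.5-fold higher in F592A stromal cells and 4 were at least 1.5-fold lower, of 36. Over all 13854 measured genes of stromal cells, 3.33% were that much higher and 4.67% that much lower. With TMM factors, a scaling that centres the typical gene, these shares were 4.2% and 3.68%. The median log2 ratio of the 36 members was 0.04, against -0.08 over all measured genes, and 24 of the 36 lay above that of all genes. TMM moved the median of all genes to 0.00, so ratios between -0.08 and 0 take the other sign with it. Ratios below are F592A over WT on the log2 scale. The stromal cells lay in unlike clusters in the libraries: 982 in F592A and 744 in WT in the cluster led by Saa3 and C3, 843 and 1714 in that led by Rbp4 and Slpi, and 211 and 631 in that led by Olfml2a, Efemp1 and Cd55. A further cluster held 0 stromal cells in F592A and 73 in WT. The part of this in the stromal ratios was not tested, and values within clusters stand below.

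**Figure D2:**
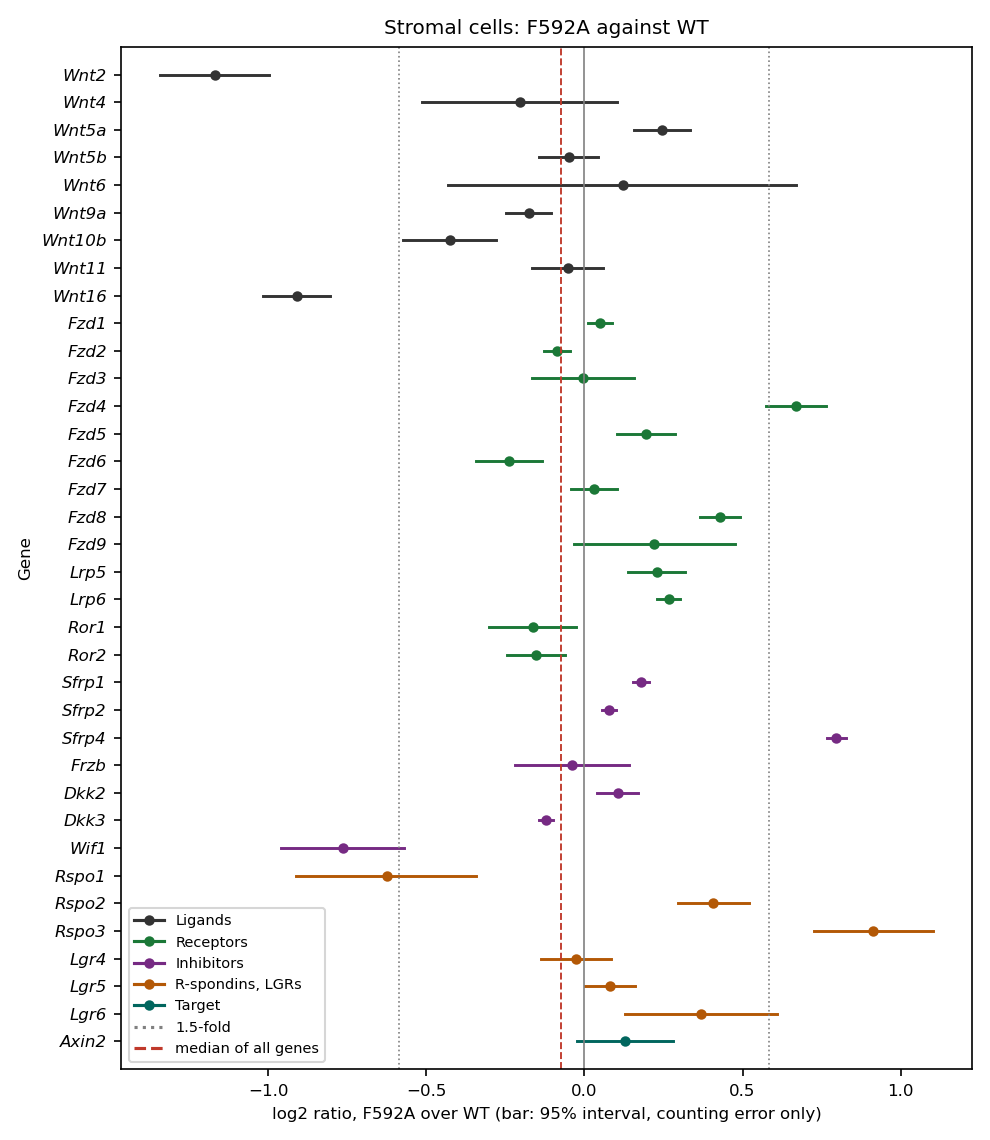
Log2 ratio of F592A over WT in stromal cells for the 36 measured members, with 95% counting intervals and colours by role. Wnt2 at -1.17 and Wnt16 at -0.91 lie farthest to the left, and Rspo3 at 0.91, Sfrp4 at 0.80 and Fzd4 at 0.67 farthest to the right.

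Among the ligands, Wnt2, which signals through beta-catenin, had 373 UMIs and 3.10 CPM in F592A stromal cells, against 1063 UMIs and 6.95 CPM in WT stromal cells. The ratio was -1.17 (interval -1.34 to -0.996), the lowest of the 36 measured members. Wnt16, a ligand with roles in bone and joint tissue, was at 8.61 CPM in F592A and 16.2 CPM in WT, a ratio of -0.91 (interval -1.02 to -0.80). The other 7 measured ligands were within 1.5-fold. Wnt10b was at 5.02 CPM in F592A and 6.75 CPM in WT with a ratio of -0.43, and Wnt9a was at 23.0 and 26.0 CPM with a ratio of -0.18. Wnt5a, the main ligand of Ror2, was at 16.5 CPM in F592A and 13.9 CPM in WT, a ratio of 0.25, while Wnt5b (-0.05) and Wnt11 (-0.05) had intervals that included 0. No measured ligand was 1.5-fold higher.

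Among the receptors, Fzd4 was the only frizzled past 1.5-fold, at 16.7 CPM in F592A and 10.5 CPM in WT stromal cells, a ratio of 0.67 (interval 0.57 to 0.76). With the stromal subtypes weighted equally the Fzd4 ratio was 0.55, short of 1.5-fold. In macrophages, where Fzd4 was at 4.7% and 11.0% of the stromal level in F592A and WT, it rested on 17 and 31 UMIs. Fzd8 was at 34.8 CPM in F592A and 25.9 CPM in WT, a ratio of 0.43. The co-receptors Lrp5 and Lrp6 had ratios of 0.23 (interval 0.14 to 0.32) and 0.27 (interval 0.23 to 0.30). Fzd1, at 81.0 CPM in F592A and 78.3 CPM in WT, and Fzd2, at 67.5 and 71.6 CPM, had ratios of 0.05 and -0.09. Ror1 (-0.16) and Ror2 (-0.15) were slightly lower.

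Of the secreted inhibitors, Sfrp4, a Wnt-binding protein known from fibroblasts and bone, was at 175 CPM in F592A and 101 CPM in WT stromal cells, a ratio of 0.80 (interval 0.77 to 0.83). Wif1, which binds Wnts directly, was at 2.70 CPM in F592A and 4.58 CPM in WT, a ratio of -0.76 (interval -0.96 to -0.57). The inhibitors thus differed in direction. Sfrp1, at 214 CPM in F592A and 189 CPM in WT, had a ratio of 0.18, Dkk2 0.11 and Dkk3 -0.12, and the interval of Frzb (-0.22 to 0.14) included 0.

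The R-spondins differed in sign from each other. Rspo3 was at 4.76 CPM in F592A and 2.53 CPM in WT stromal cells, a ratio of 0.91 (interval 0.72 to 1.103). Rspo1 was at 1.31 CPM in F592A and 2.02 CPM in WT, a ratio of -0.62 (interval -0.91 to -0.34), and it was short of 1.5-fold lower under 4 of 12 alternatives, TMM factors among them. Within clusters Rspo1 was lower in those led by Igf2 (-1.19), Rbp4 (-1.34) and Chad (-1.01), and higher in that led by Saa3 (2.47, on 23 UMIs in F592A and 3 in WT), and the intervals of the other 4 included 0. Rspo2 was at 11.0 CPM in F592A and 8.29 CPM in WT, a ratio of 0.41. Their receptors Lgr4 (-0.03) and Lgr5 (0.08) were close to level, and Lgr6 had a ratio of 0.37. Axin2 was at 5.57 CPM in F592A and 5.10 CPM in WT stromal cells, and its ratio of 0.13 had an interval of -0.02 to 0.28.

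The share of stromal cells with at least 1 UMI moved with the levels for the called members other than Wif1. After each cell was thinned to 5000 UMIs, Wnt2 was read in 1.38% of F592A stromal cells (exact interval 1.06 to 1.76) and 2.24% of WT stromal cells (1.88 to 2.64). Before thinning the shares were 3.36% and 6.01%. Wnt16 was read in 3.42% of F592A and 5.76% of WT stromal cells, Fzd4 in 8.74% and 5.10%, Sfrp4 in 21.6% and 15.3%, and Rspo3 in 2.42% and 1.16%, all after thinning. Unthinned, these were 8.99% and 15.2% for Wnt16, 27.1% and 18.0% for Fzd4, 33.1% and 25.8% for Sfrp4, and 6.72% and 3.94% for Rspo3. Thinning left out 143 F592A and 228 WT stromal cells. Macrophages were set beside them, on the untested assumption that they lack these genes. They gave 0.07% and 0.14% for Wnt2, 0.34% and 0.46% for Fzd4 and 1.51% and 0.97% for Sfrp4 after thinning, in F592A and WT. They gave 0.07% and 0.28% for Wnt16 and 0.00% in both for Rspo3, which allows up to 0.25% in F592A and 0.17% in WT. The median depth before thinning was 24587 UMIs in F592A and 22269 in WT stromal cells, and 13359 and 10340.5 in macrophages. Rspo1 was read in 0.40% of F592A and 0.95% of WT stromal cells after thinning. Wif1 shares did not differ beyond their intervals (0.80% in F592A, 0.98% in WT), and unthinned they were 2.59% and 2.61%.

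By stromal subtype, the number of measured members that were at least 1.5-fold higher and lower was 2 and 3 of 33 in tenocyte-like cells, where 2.39% and 2.7% of all measured genes were so. It was 3 and 3 of 25 in chondrogenic-like cells (3.53% and 3.18% of all genes), and 4 and 2 of 29 in adventitial-like cells (3.11% and 8.36%). It was 5 and 0 of 15 in Prg4/Angptl7 cells (4.03% and 10.2%), 2 and 5 of 24 in cycling cells (3.48% and 4.92%), and 3 and 4 of 33 in the remaining stromal cells (3.39% and 5.21%). The tenocyte-like calls were Fzd4 and Sfrp4 (higher) with Wnt16, Sfrp1 and Rspo1 (lower), Rspo1 at 1.75 CPM in F592A and 3.03 CPM in WT (ratio -0.79). The lower calls of the remaining stromal cells were Wnt2 (-1.04), Wnt10b (-0.75), Wnt16 and Rspo1 (-0.64). Wnt10b there was at 2.85 CPM in F592A and 4.78 CPM in WT, while in the cluster led by Olfml2a, Efemp1 and Cd55 it was at 43.7 and 25.8 CPM, a ratio of 0.76 (interval 0.53 to 0.995).

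**Figure D3:**
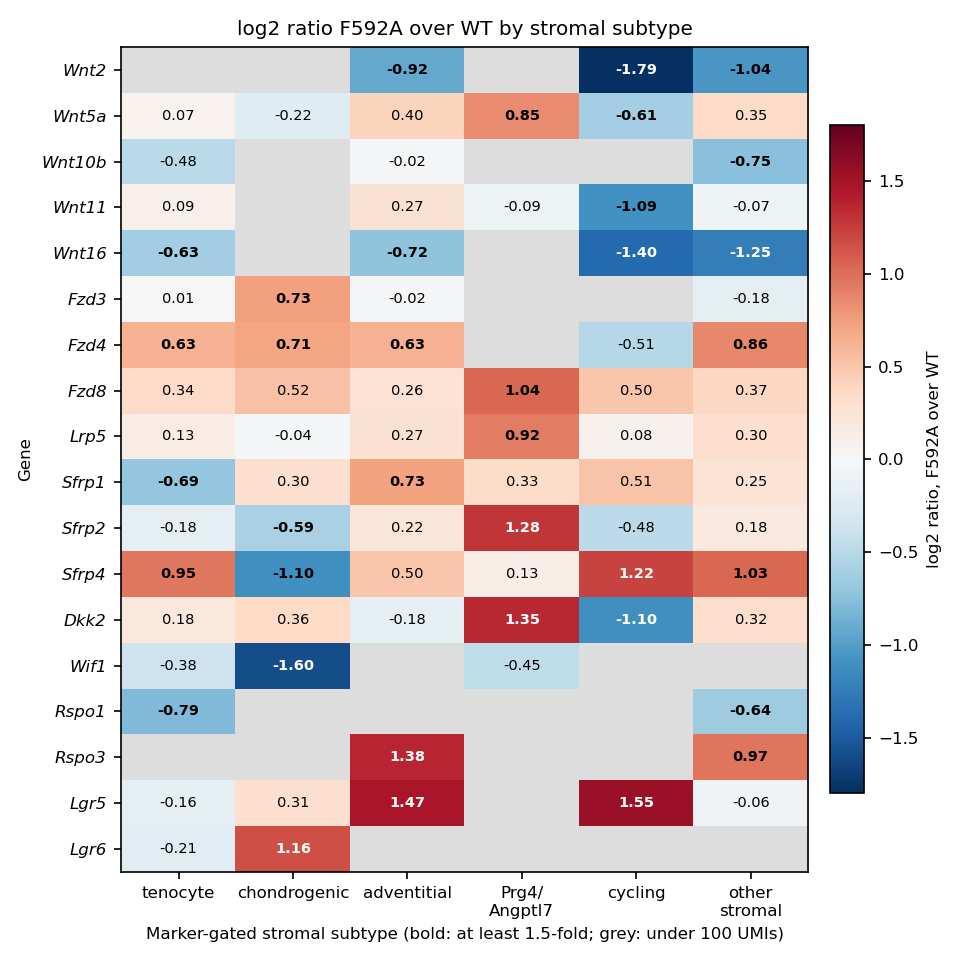
Log2 ratio of F592A over WT in 6 stromal subtypes for the 18 members past 1.5-fold in at least 1 of them. Wnt16 is blue in the 4 subtypes where it was measured, and Sfrp4 is red except in chondrogenic-like cells at -1.10.

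Wnt2 was carried by the adventitial-like cells, which held 308 of its 373 stromal UMIs in F592A and 814 of 1063 in WT. There it was at 24.5 CPM in F592A and 46.1 CPM in WT, a ratio of -0.92 (interval -1.11 to -0.72). In tenocyte-like cells it was at 0.24 and 0.30 CPM in F592A and WT, on 12 and 17 UMIs. The cluster that held most Wnt2 UMIs, made without these genes, gave a smaller ratio. It is not the same set of cells as the adventitial gate (512 in F592A, 770 in WT), and their overlap was not counted. The cluster led by Olfml2a, Efemp1 and Cd55 held 232 Wnt2 UMIs in 211 F592A stromal cells and 732 in 631 WT stromal cells. Its Wnt2 level was 39.9 CPM in F592A and 48.5 CPM in WT, a ratio of -0.28 (interval -0.50 to -0.06). On fewer UMIs, Wnt2 was lower in the clusters led by Igf2 (-1.24), Saa3 (-0.85) and Top2a (-1.74), with intervals below 0. In the remaining clusters present in both libraries the Wnt2 intervals included 0. How far the number of cells that carry Wnt2 in each pool and the Wnt2 level per cell each enter the stromal ratio was not tested.

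Wnt16 was lower in more of the stroma. The ratio was -1.251 in the remaining stromal cells, where it was at 10.4 CPM in F592A and 24.8 CPM in WT, -0.63 in tenocyte-like cells, at 8.50 and 13.2 CPM, and -0.72 in adventitial-like cells, at 6.59 and 10.9 CPM. In all 8 stromal clusters present in both libraries its ratio was negative with an interval below 0, from -1.53 in the cluster led by Saa3 and C3 to -0.48 in the cluster led by haemoglobin genes and Scx. Chondrogenic-like cells were the exception among subtypes, with 46 UMIs in F592A and 40 in WT, under the minimum, and 7.26 and 4.91 CPM.

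**Figure D4:**
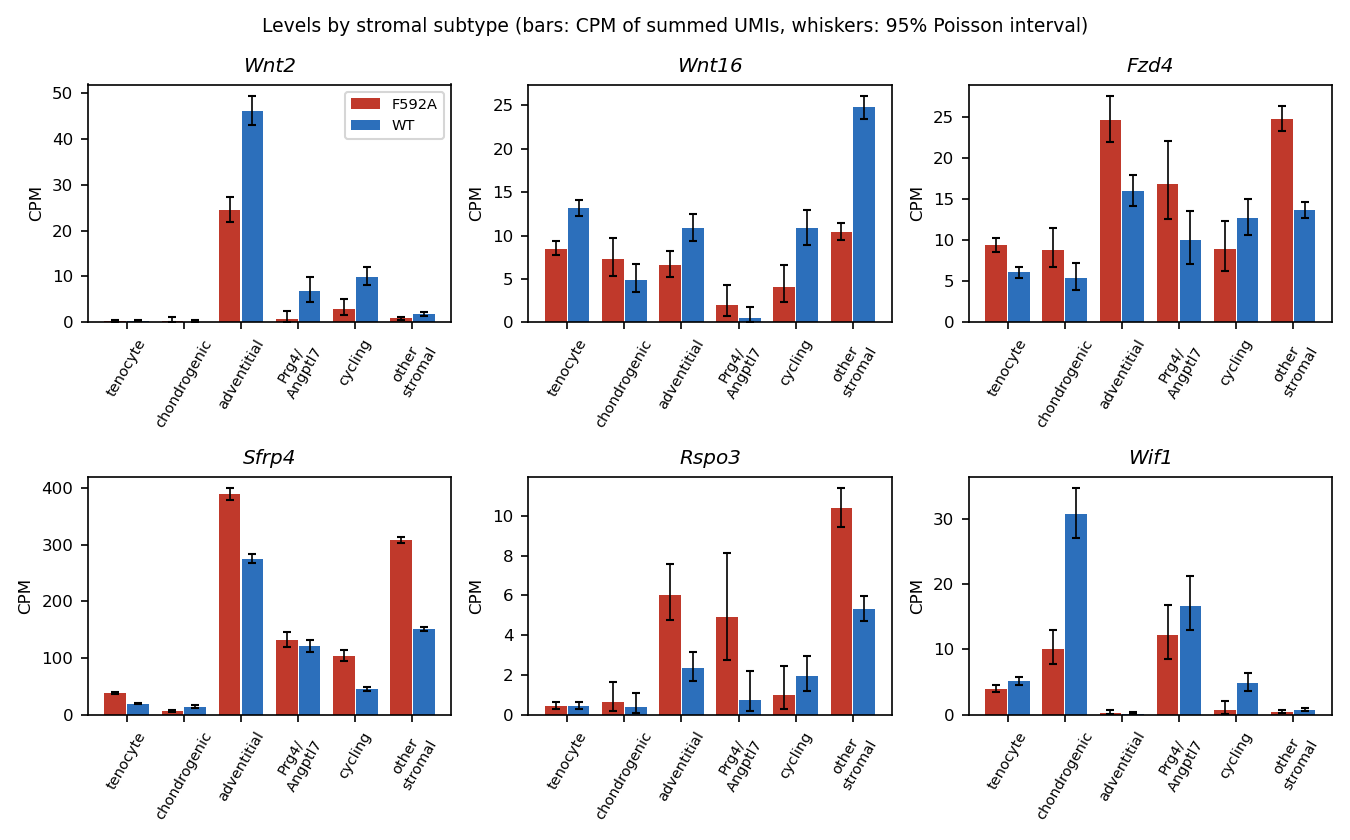
CPM of 6 members in 6 stromal subtypes, with F592A bars left of WT bars and 95% Poisson intervals. Wnt2 stands almost entirely in adventitial-like cells (24.5 CPM in F592A, 46.1 CPM in WT), and Wif1 in chondrogenic-like and Prg4/Angptl7 cells.

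Fzd4 had a ratio between 0.63 and 0.86 in tenocyte-like, chondrogenic-like, adventitial-like and the remaining stromal cells. In cycling cells it was at 8.91 CPM in F592A and 12.7 CPM in WT, a ratio of -0.51 whose interval (-1.07 to 0.03) included 0. By cluster, 4 of 8 had a ratio of 0.67 to 0.74, and the intervals of the other 4 included 0. Rspo3 was higher in adventitial-like cells, at 6.04 CPM in F592A and 2.32 CPM in WT (76 and 41 UMIs, ratio 1.38), and in the remaining stromal cells, at 10.4 and 5.32 CPM (ratio 0.97). The clusters that held most of its UMIs gave 0.68 (led by Saa3 and C3) and 0.71 (led by Igf2 and Penk). The cluster led by Olfml2a, Efemp1 and Cd55, not the same cells as the adventitial gate, held only 6 Rspo3 UMIs in F592A and 19 in WT. Its Rspo3 ratio was -0.28, with an interval that included 0. The cluster led by Angptl7 and Prg4 held 0 and 6 Rspo3 UMIs, with an interval below 0. In the clusters led by Top2a (-1.05), Rbp4 (0.11), haemoglobin genes and Chad, the Rspo3 intervals included 0.

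Sfrp4 was at 37.3 CPM in F592A and 19.3 CPM in WT tenocyte-like cells, a ratio of 0.95, and at 307 and 151 CPM in the remaining stromal cells, a ratio of 1.03. In adventitial-like cells, where its level was highest, it was at 389 CPM in F592A and 275 CPM in WT, a ratio of 0.50. Chondrogenic-like cells had 6.47 CPM in F592A and 13.9 CPM in WT, on 41 and 113 UMIs, a ratio of -1.10. The cluster led by Chad, Cilp2 and Col11a2 went the other way, at 9.07 CPM in F592A and 4.04 CPM in WT (176 and 83 UMIs). Its ratio was 1.17 (interval 0.78 to 1.56). It held 677 F592A and 858 WT stromal cells, against 192 and 310 in the chondrogenic gate, and their overlap was not counted. In the other clusters Sfrp4 was higher in those led by Igf2 (0.74), Saa3 (0.41), Rbp4 (0.95) and the cycling gene Top2a (1.19). It was lower in that led by haemoglobin genes and Scx (-0.47), and the intervals of the remaining 2 included 0. Sfrp1 was lower in tenocyte-like cells, at 43.2 CPM in F592A and 69.7 CPM in WT (ratio -0.69), and higher in adventitial-like cells, at 311 and 188 CPM (ratio 0.73). Over all stromal cells the Sfrp1 ratio of 0.18 therefore hides subtypes of unlike sign. By cluster, Sfrp1 was higher in those led by Olfml2a, Efemp1 and Cd55 (1.20), Top2a (0.43) and Rbp4 (0.22). It was lower in those led by Igf2 (-0.50) and Angptl7 (-0.77). In the clusters led by Saa3 (-0.02), by haemoglobin genes and Scx (-0.24) and by Chad (-0.32), the Sfrp1 intervals included 0.

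Wif1 was lower in chondrogenic-like cells, where it was at 10.1 CPM in F592A (64 UMIs) and 30.7 CPM in WT (250 UMIs), a ratio of -1.60 (interval -2.02 to -1.20). In Prg4/Angptl7 cells it was at 12.2 CPM in F592A and 16.7 CPM in WT, and that interval (-1.07 to 0.15) included 0. By cluster, Wif1 was lower in that led by Chad, Cilp2 and Col11a2 (143 UMIs in F592A and 342 in WT, ratio -1.17), in that led by Rbp4 (33 and 146 UMIs, -1.40) and, on fewer UMIs, in those led by haemoglobin genes (-1.15) and Top2a (-3.02). The cluster led by Angptl7 and Prg4 held 107 UMIs in each library. Lgr6, an R-spondin receptor, was higher in the chondrogenic-like cells, at 21.2 CPM in F592A and 9.45 CPM in WT, a ratio of 1.16 (interval 0.75 to 1.59). Fzd3 there was at 9.79 and 5.89 CPM in F592A and WT, a ratio of 0.73. Lgr5 was higher in adventitial-like cells, at 11.9 CPM in F592A and 4.31 CPM in WT (ratio 1.47), and in cycling cells, at 27.9 and 9.53 CPM (ratio 1.55). In tenocyte-like cells the Lgr5 ratio was -0.16. The cycling cluster gave 1.30. The cluster led by Olfml2a, Efemp1 and Cd55, not the same cells as the adventitial gate, had only 8 Lgr5 UMIs in F592A and 16 in WT. Its Lgr5 ratio was 0.38 (interval -1.05 to 1.69). The adventitial marker Pi16 itself was at 1886 CPM in F592A and 876 CPM in WT in the adventitial gate, and its part in the Lgr5 ratio was not tested.

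In Prg4/Angptl7 cells, 136 in F592A and 183 in WT, the 5 members past 1.5-fold were all higher. Dkk2, which binds the Lrp co-receptors, was at 97.1 CPM in F592A and 38.1 CPM in WT, a ratio of 1.35. Sfrp2 was at 181 and 74.4 CPM in F592A and WT, a ratio of 1.28. Fzd8 (1.04), Lrp5 (0.92) and Wnt5a (0.85) were the others. The gate differed between libraries in its own markers: Clic5 was at 0.66 CPM in F592A and 23.6 CPM in WT, and Tppp3 at 208 and 605 CPM. The part of this in the Wnt gene ratios was not tested. The cluster led by Angptl7 and Prg4, with 269 F592A and 334 WT stromal cells, gave 0.77 for Sfrp2. In the other 7 stromal clusters the Sfrp2 ratio was below 0, from -0.87 to -0.06, each with an interval below 0. The Sfrp2 level over all stromal cells, given above, was slightly higher in F592A, the opposite sign to these 7 clusters.

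Cycling stromal cells were 2.18% of F592A and 4.56% of WT stromal cells. They had the most members lower, with ratios of -1.79 for Wnt2, -1.40 for Wnt16, -1.10 for Dkk2, -1.09 for Wnt11 and -0.61 for Wnt5a. Each of these rested on 12 to 79 UMIs in F592A. With cycling cells left out, the stromal calls were the same 3 higher and 4 lower members.

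In mural cells most measured members were higher in F592A, few of them by 1.5-fold. Of 13, 2 were at least 1.5-fold higher and none lower, while 4.21% were that much higher and 8.68% that much lower among all 8495 measured genes. With TMM factors these shares were 5.87% and 5.43%. The median ratio of the 13 members was 0.43 against -0.09 over all genes, and 11 of the 13 lay above that of all genes. This holds for the measured members: with no UMI minimum the median of 39 members was -0.27, below that of all genes at -0.09, and with cell types by clusters that of 16 members was 0.23. Fzd5, a frizzled needed for vessels of the mouse yolk sac, was at 15.2 CPM in F592A (114 UMIs) and 8.99 CPM in WT (56 UMIs), a ratio of 0.75 (interval 0.28 to 1.24). Axin2 was at 13.7 CPM in F592A (103 UMIs) and 8.19 CPM in WT (51 UMIs), a ratio of 0.74 (interval 0.24 to 1.254). Fzd4 was at 117 and 78.2 CPM, Fzd8 at 33.8 and 22.8 CPM and Ror1 at 18.5 and 12.4 CPM in F592A and WT, each with a ratio of 0.57 or 0.58, just short of 1.5-fold. With TMM factors these 3 passed it, which made 5 members higher. Lgr4 went the other way, at 12.4 CPM in F592A and 17.0 CPM in WT, a ratio of -0.46.

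**Figure D5:**
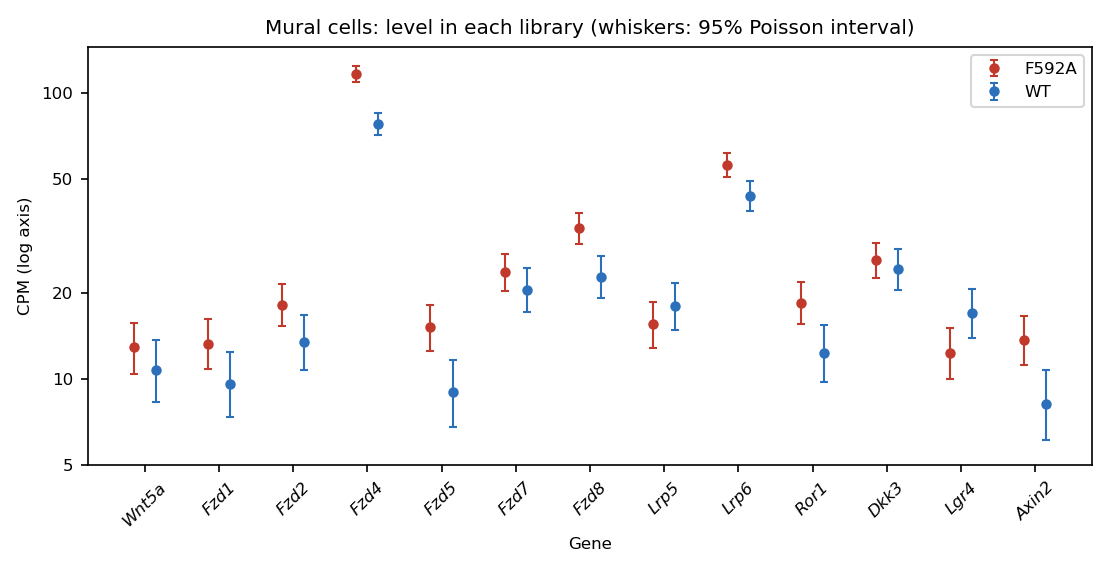
CPM of the 13 measured members in mural cells on a log axis, F592A left of WT, with 95% Poisson intervals. The F592A value is the higher one for 11 genes and the lower one for Lrp5 and Lgr4, and the intervals of Fzd4, Fzd5, Fzd8, Lrp6, Ror1 and Axin2 are apart.

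The mural gate mixed 2 clusters in unlike numbers: a larger one with 437 F592A and 496 WT cells, and one led by Pln and Itga8 with 155 and 84. In the larger cluster the ratios were 0.82 for Axin2, 0.70 for Fzd5, 0.70 for Fzd8 and 0.66 for Fzd4, against 0.74, 0.75, 0.57 and 0.58 over all mural cells. In the smaller cluster Axin2 had 21 UMIs in F592A and 7 in WT. The ratios there were 0.46 for Axin2, 1.02 for Fzd5, 0.03 for Fzd8 and 0.29 for Fzd4, each with an interval that included 0. Of the wider pathway, no secretion gene (2 of 7 measured) and no relay gene (13 of 15) passed 1.5-fold in mural cells. The mural targets list had 5 of 9 genes measured, with Ccn4 (0.69) higher and Nkd2 (-0.72) lower.

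In endothelial cells no measured member passed 1.5-fold in either direction, of 7, against 2.41% higher and 8.42% lower over all 8706 measured genes. With TMM factors those shares were 3.7% and 5.03%. All 7 ratios, from 0.05 for Dkk2 to 0.41 for Lrp5, lay above the median of all genes at -0.09. With cells thinned to 5000 UMIs, Lrp6 (-0.16) and Dkk2 (-0.33) were below it. Lrp5 was at 44.7 CPM in F592A and 33.6 CPM in WT with an interval of 0.18 to 0.64, and the intervals of the other 6 included 0. Relay genes (12 of 15 measured), planar polarity genes (7 of 9), secretion genes (2 of 7) and targets (2 of 9) gave no call there either. In macrophages, with 10 measured members, 1 was past 1.5-fold higher and 1 lower (1.87% and 3.59% of all measured genes). These were Sfrp4 (0.83, at 3.11 CPM in F592A and 1.75 CPM in WT) and Sfrp1 (-0.59, at 3.07 and 4.63 CPM). Their macrophage levels were between 1.4% and 2.5% of the stromal levels and may be background, which was not tested.

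Other genes of the pathway were described from lists. In stromal cells as a whole, 4 of 7 genes of secretion and turnover at the membrane, 14 of 15 signal relay genes, 6 of 9 targets and 8 of 9 planar polarity genes were measured, and none passed 1.5-fold in either direction. Wls, which carries Wnts to the cell surface, was at 261 CPM in F592A and 292 CPM in WT, a ratio of -0.17. Ctnnb1, which encodes beta-catenin, was at 191 and 190.0 CPM in F592A and WT, a ratio of 0.01. Of the relay genes (Lef1 and Tcf7 stand on the targets list too), 12 of the 14 lay above the median of all genes, up to 0.35 for Bcl9, a beta-catenin partner, with Ctnnbip1, a beta-catenin inhibitor, lowest at -0.39. Among the targets, Nkd2 (0.49) and Myc (0.41) had the highest ratios, and Ccn4 (-0.24), Nkd1 (-0.22) and Ccnd1 (-0.14) were below the median. In single stromal subtypes 11 calls past 1.5-fold were made. Each subtype had 2 to 4 secretion, 9 to 14 relay, 4 to 6 target and 3 to 7 planar polarity genes measured. Over all measured genes, 2.39% to 4.03% were that much higher and 2.7% to 10.2% that much lower, by subtype. Whether the calls exceed these shares was not tested. Nkd2, an antagonist that Wnt signalling induces, was higher in tenocyte-like (0.60), adventitial-like (0.77) and cycling cells (0.75). Myc was at 79.0 CPM in F592A and 36.3 CPM in WT Prg4/Angptl7 cells, a ratio of 1.12, where Kremen1, a dickkopf receptor, was lower (-0.67). Tcf7l1, a TCF factor that mostly represses, was higher in the remaining stromal cells (0.65) and lower in cycling cells (-0.62). The others were Bcl9 in chondrogenic-like cells (0.59), Ccnd1 (0.61) and Vangl1 (0.62) in cycling cells, and Ptk7 in adventitial-like cells (-0.62). In mural cells Prickle2 of the planar polarity list (6 of 9 measured) was higher (0.62), and of the relay list Tcf7l2, a TCF factor, was at 80.7 CPM in F592A and 55.7 CPM in WT, a ratio of 0.53. The 8 further Wnt, dickkopf and related genes outside the 46 were not measured in stromal, mural or endothelial cells.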

How the data were processed

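The deposited values were whole UMI counts per gene and barcode, made by the authors with Cell Ranger 6.0.1 per the file headers. Cell Ranger 2.1.1, with Seurat and the mm10 build, is listed per the submitters' processing notes, and which version applies was not settled. Reads were not used. Barcodes with at least 500 genes, 1000 UMIs and at most 15% mitochondrial UMIs were kept (8664 of 10677 in F592A, 11599 of 14868 in WT). Scrublet doublets, 220 in F592A (2.54%) and 342 in WT (2.95%), were left out.

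Each cell was scored per type by the mean log2 of 1 plus its marker UMIs per 10000. It was stromal at 4 or more, or another type at 1 or more, and 590 F592A and 777 WT cells fell in no type or in several. Stromal cells were split by similar scores. These cuts were set after seeing the data. Clusters (2000 variable genes, 30 components, 15 neighbours, resolution 0.8, 22 clusters) were made without Wnt pathway genes.

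UMIs were summed per type and library, with exact Poisson intervals for CPM, exact conditional binomial intervals for log2 ratios and exact binomial intervals for shares. Measured genes had 100 or more UMIs in the pair of libraries, and a called gene was at least 1.5-fold apart. Stromal cells held 120486065 UMIs in F592A and 152847292 in WT. All called members and the highest of each role are named. The members and lists were chosen with earlier results of these data known. Software was Python 3.11.15, scanpy 1.11.5, scipy 1.17.1, numpy 2.4.6, R 4.3.3, edgeR 4.0.16 (TMM factors) and DESeq2 1.42.0 (size factors), the R tools for scaling only.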

Additional observations from a re-analysis of the deposited data

Results flagged for a closer look

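Members called in both directions among the cell types stand out here, and none of these differences between cell types was tested. Wnt5a had a log2 ratio of F592A over WT of 0.85 in Prg4/Angptl7 cells and -0.61 in cycling stromal cells. Dkk2 had 1.35 and -1.10 in the same subtypes. Sfrp2 had 1.28 in Prg4/Angptl7 cells and -0.59 in chondrogenic-like cells.

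Sfrp1 had 0.73 in adventitial-like cells, -0.69 in tenocyte-like cells and -0.59 in macrophages, the last at a low level that may be background. By cluster it had 1.20 in that led by Olfml2a, Efemp1 and Cd55, and -0.50 and -0.77 in those led by Igf2 and Angptl7. Those led by haemoglobin genes and Scx (-0.24) and by Chad (-0.32) had Sfrp1 intervals that included 0. Sfrp4 had 0.80 over all stromal cells, 0.95 in tenocyte-like cells, 1.22 in cycling cells and 1.03 in the remaining stromal cells. It had 0.83 in macrophages, where it too may be background. Chondrogenic-like cells had -1.10, while the cluster led by Chad, Cilp2 and Col11a2, a larger set of cells, gave 1.17 (interval 0.78 to 1.56). Near the chondrogenic cut lay 1675 cells, against 502 inside it.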

How the results depend on the processing

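Without a UMI minimum, 10 of 46 stromal members were lower, against 4 (16.0% of all genes). In mural cells 6 of 39 were then higher and 13 lower (18.3% and 20.0% of all genes), against 2 and 0, and in endothelial cells 7 and 11 of 37 (16.6% and 20.1%), against 0 and 0. A minimum of 30 UMIs gave 4 higher and 2 lower of 21 in mural cells (6.61% and 10.8%) and 1 higher and 2 lower of 17 in endothelial cells (4.19% and 11.3%). More genes of few UMIs enter with both. Mural cells gave 5 higher with TMM factors and 5 with median-of-ratios factors, and 1 with cells thinned to 5000 UMIs, where 5 members were measured. Clusters in place of marker scores gave 2 lower endothelial members, Sfrp1 and Sfrp2. The cause of the other moves was not tested. The count of higher stromal members was between 3 and 4 throughout. Of 632 values of single genes in stromal, mural and endothelial cells under 12 alternatives, 565 lay within the interval of the reported value. No ratio past 1.5-fold in those cell types changed sign. Among smaller ratios 26 values did, 9 of them with thinned cells and 10 with the scaling factors. With thinned cells, Fzd1 in mural cells was at -0.08 against 0.46, and Fzd9 in stromal cells at -0.23 against 0.22. Calls in single stromal subtypes and in macrophages were not put through these alternatives. Leaving out shared barcodes or cells near a cut were alternatives chosen after seeing the data. No paired analysis was possible because each genotype was 1 library.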
